A study of Canis lupus familiaris with 13 samples.

Results

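The gene set described here holds 10 genes that act on the entry of glucose into muscle and on its first commitment to glycolysis: the glucose transporters SLC2A1, SLC2A3 and SLC2A4, the transport regulators TBC1D4 and TBC1D1, the hexokinases HK1 and HK2, and the bifunctional enzymes PFKFB1, PFKFB3 and PFKFB4. They were taken by symbol from a table of 30951 dog genes. Each of the 10 symbols had 1 Ensembl identifier, each was annotated as protein coding, and all 10 passed the filter on low counts. The samples were skeletal muscle biopsies of the biceps femoris of 4 wild type dogs aged 9-10 months, taken under local anaesthesia and frozen in liquid nitrogen. The insulin stimulated group had 10 libraries, namely sample 1 of dogs 1 to 4, sample 2 of dogs 1 to 4 and sample 3 of dogs 1 and 2. The basal group had 3 libraries, sample 0 of dogs 2, 3 and 4, and no basal library of dog 1 was analysed here. The labels do not say what the sample numbers stand for, nor the dose or duration of insulin. All basal libraries are sample 0 and no insulin library is. Insulin against basal therefore cannot be told apart from a difference between sample 0 and the other sample numbers.

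In muscle, glucose enters through carriers of the SLC2A family. SLC2A1 (GLUT1) serves basal uptake, SLC2A3 (GLUT3) is a high affinity carrier best known from neurons and blood cells, and SLC2A4 (GLUT4) waits inside the fibre in vesicles that insulin sends to the surface. The Rab GTPase-activating proteins TBC1D4 and TBC1D1 hold those vesicles back until insulin or contraction signalling leads to their phosphorylation. Hexokinases then trap glucose as glucose phosphate, and PFKFB enzymes make and break the fructose bisphosphate that activates phosphofructokinase. Much of this control acts on protein location and phosphorylation, which RNA levels do not measure.

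Library totals ran from 45200416 to 81948641 counts. The skeletal muscle identity list was found whole in the table, with 12 of 12 genes, and its summed level ran from 273298 to 449133 CPM in insulin libraries and from 266110 to 345642 CPM in basal libraries. CPM is the number of counts relative to the library total, after adjustment of that total by the trimmed mean of M values (TMM). One library stood apart. In sample 2 of dog 1, 20.8% of the 14629 genes tested were at their lowest of 13 libraries, the actin gene ACTA1 took 18.4% of counts, the highest share of the 13, and the mean correlation with the other libraries was 0.943, against 0.951 to 0.964 in the others. For some of the differences that include it, the value without it is given as well.

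None of the 10 genes passed the threshold of 0.05 on the adjusted p in insulin against basal (edgeR quasi-likelihood test with the dog as a block, Benjamini-Hochberg adjustment over all genes tested), where 20 genes or 0.137% did. At an unadjusted p below 0.05 there was 1 of the 10, SLC2A1, against 4.12% of all genes. With DESeq2 in place of edgeR, run without the low count filter, 1 of the 10 passed, again SLC2A1, beside 103 of 25207 genes. Of the log2 differences 6 were positive and 4 negative, with a median of 0.060 beside -0.0013 over all genes tested. Their 95% intervals show what the design could resolve. The narrowest was that of PFKFB4, -0.39 to 0.32 on the log2 scale, and the widest that of SLC2A3, -0.11 to 2.14.

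**Figure D1:**
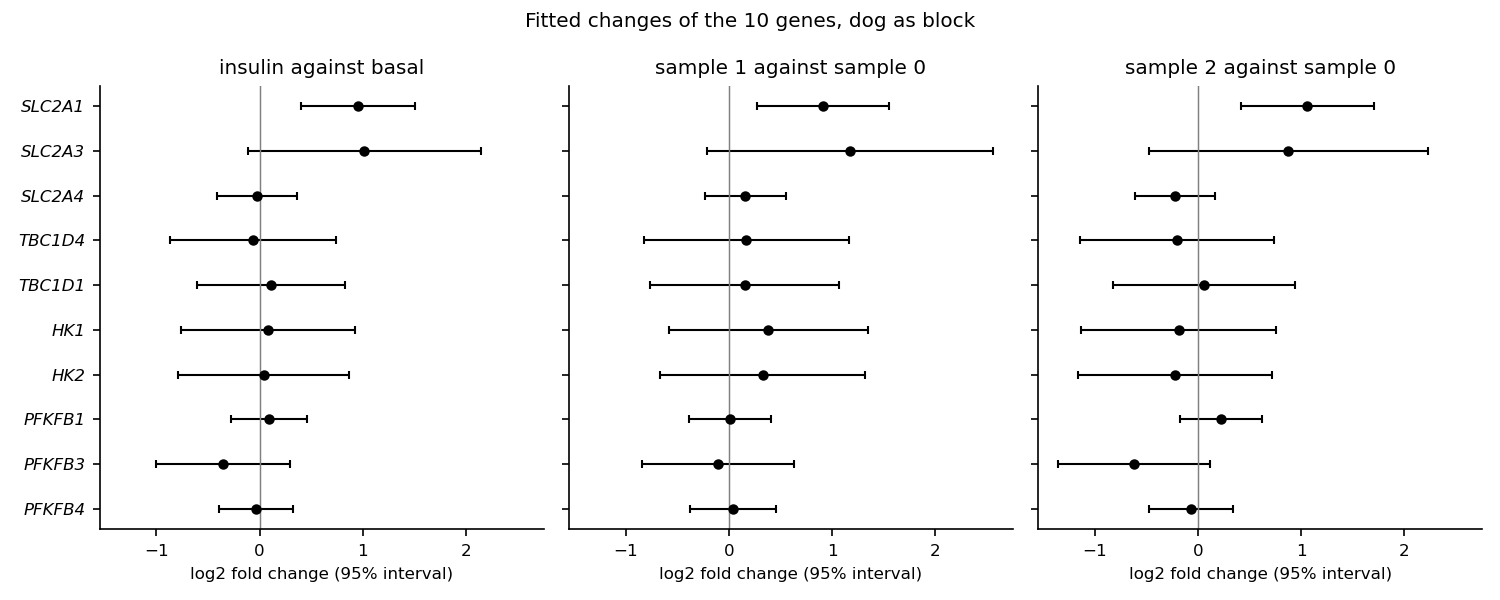
Log2 fold change of each of the 10 genes (points) with its 95% interval (bars) in insulin against basal, sample 1 against sample 0 and sample 2 against sample 0, from edgeR quasi-likelihood fits with the dog as a block. Of the insulin against basal intervals, that of SLC2A1, 0.40 to 1.51, is the only one that does not reach 0.

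SLC2A1 (ENSCAFG00000002500), the carrier of basal uptake, was higher under insulin in every dog that had a basal library. Dog 2 had 1.74, 3.27 and 2.31 CPM in insulin samples 1, 2 and 3, against 1.52 CPM in basal sample 0. Dog 3 had 3.18 and 3.27 CPM in insulin samples 1 and 2, against 1.43 CPM in basal sample 0, and dog 4 had 5.04 and 3.49 CPM against 2.03 CPM. Dog 1, with no basal library, had 4.14, 4.92 and 3.65 CPM in insulin samples 1, 2 and 3, above all 3 basal libraries. The ranges of the groups overlapped through 1 library, sample 1 of dog 2, which lay below the basal library of dog 4. All 7 insulin libraries lay above their own dog's basal library, by 1.14 to 2.48 times, while 2.69% of genes tested did so.

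SLC2A1 averaged 3.50 ± 1.03 CPM under insulin (SD, n = 10) and 1.66 ± 0.32 CPM at basal (SD, n = 3). The log2 difference was 0.95 ± 0.26 (SE), or 1.94-fold, with a 95% interval from 1.32-fold to 2.84-fold. Its unadjusted p in edgeR was 0.00242, rank 102 of all genes tested, and its adjusted p was 0.344. DESeq2 gave a log2 difference of 0.96 with an adjusted p of 0.0432, so the call depended on the tool, and it was the one alternative to pass. With the insulin counts of each dog summed, edgeR gave 0.95 with an adjusted p of 0.980. The estimate ran from 0.86 to 1.12 over 23 alternatives. By sample number, the log2 difference was 0.91 ± 0.29 in sample 1 against sample 0 and 1.06 ± 0.29 in sample 2 against sample 0, with adjusted p of 1 and 0.603 in edgeR. That for sample 2 was 1.03 without sample 2 of dog 1. These comparisons share the 3 basal libraries. Reads on SLC2A1 numbered 88 to 327 per library.

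**Figure D2:**
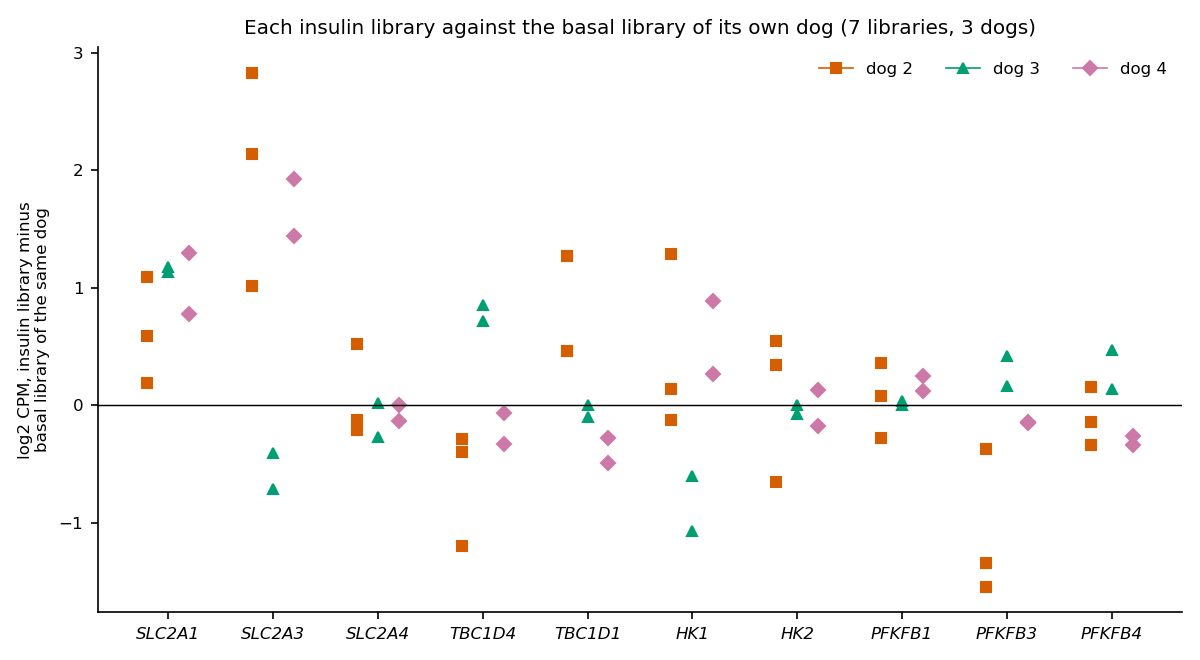
Log2 CPM of each of the 10 genes in the 7 insulin libraries of dogs 2, 3 and 4, minus that in the same dog's basal library, with 1 point for each insulin library, marked by dog. All 7 points lie above 0 for SLC2A1, whereas those of the other 9 genes lie on both sides.

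SLC2A1 is also made outside the muscle fibre, in red cells and in the endothelium of barrier tissues. The endothelium list had all 10 genes in the table, with 7 higher and 3 lower under insulin, none past the threshold, and a median log2 difference of 0.12. Its summed level ran from 108 to 390 CPM in insulin libraries and from 129 to 452 CPM in basal libraries. The red cell list ran from 36.7 to 51.5 CPM under insulin and from 36.0 to 46.5 CPM at basal, most of it GYPC and SLC25A37. Of its 9 genes 6 were tested, with 2 higher and 4 lower, none past the threshold, and a median log2 difference of -1.20. The 2 higher were GYPC, at 0.10 ± 0.15 (SE), and SLC25A37, at 0.19 ± 0.18. ALAS2, the heme synthesis enzyme of red cell precursors, averaged 0.666 CPM under insulin and 1.87 CPM at basal, a log2 difference of -1.89 ± 0.54 (adjusted p of 0.430 in edgeR). The haemoglobin gene HBM averaged 0.129 CPM under insulin and 0.444 CPM at basal, at -2.16 ± 0.85 (adjusted p of 0.975 in edgeR). Both rest on few counts, at most 137 for ALAS2 and 38 for HBM in any library. SLC4A1, the anion exchanger of red cells, had at most 1 count in any library. The part of these cells in the SLC2A1 difference was not tested, and in whole biopsies more cells of a type and more RNA per cell cannot be told apart.

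SLC2A3 (ENSCAFG00000013918) differed between dogs in direction, a difference that was not tested. Dog 2 had 5.89, 1.65 and 3.63 CPM in insulin samples 1, 2 and 3, against 0.801 CPM in basal sample 0. Dog 4 had 3.31 and 4.65 CPM in insulin samples 1 and 2, against 1.20 CPM in basal sample 0, whereas dog 3 had 1.10 and 1.38 CPM against 1.83 CPM. Of 7 insulin libraries 5 therefore lay above their own basal library, and the groups overlapped. Dog 1 had 1.89, 1.94 and 1.36 CPM in insulin samples 1, 2 and 3.

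The mean of SLC2A3 was 2.68 ± 1.62 CPM under insulin (SD, n = 10) and 1.28 ± 0.52 CPM at basal (SD, n = 3), and the log2 difference of 1.02 ± 0.52 had an unadjusted p of 0.0734 in edgeR and an adjusted p of 1. It was 0.44 without the basal library of dog 2, 0.65 without that of dog 4 and 1.98 without that of dog 3, with an adjusted p of 0.358 in the last. Counts ran from 51 to 441 per library. The highest SLC2A3 level, in sample 1 of dog 2, stood in the insulin library with the highest endothelium sum, 390 CPM. Insulin sample 1 of dog 3 had the lowest SLC2A3 of the insulin libraries, with an endothelium sum of 353 CPM. The basal library of dog 3, at 1.83 CPM of SLC2A3, had the highest endothelium sum of all libraries, 452 CPM. It also had the highest sums of the neutrophil and macrophage lists, 73.4 and 73.7 CPM. None of these cell types was tested as a source of SLC2A3.

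SLC2A4 (ENSCAFG00000016126), the insulin-responsive carrier of muscle and fat, showed no difference between insulin and basal beyond the spread. Its level ran from 121 CPM through a median of 193 CPM to 318 CPM in the 10 insulin libraries, and was 222, 147 and 194 CPM in the basal libraries of dogs 2, 3 and 4. All 3 basal values lay within the insulin range. The means were 195 ± 53.5 CPM under insulin (SD, n = 10) and 188 ± 38.1 CPM at basal (SD, n = 3), a log2 difference of -0.02 ± 0.18. The interval, from 0.750-fold to 1.29-fold, limits the size of any average difference.

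Between the insulin samples, SLC2A4 was lower in sample 2 than in sample 1 in 4 of 4 dogs. Sample 2 had 157, 203, 121 and 177 CPM in dogs 1 to 4, and sample 1 had 210, 318, 149 and 194 CPM. The ratios within a dog were 0.747, 0.640, 0.817 and 0.910, so each dog moved the same way while the 2 sets of levels overlapped. Lower levels in sample 2 in 4 of 4 dogs were seen in 6.80% of all genes tested. The log2 difference was -0.38 ± 0.16, with an unadjusted p of 0.0368 and an adjusted p of 0.902 in edgeR. It was -0.23 without sample 1 of dog 2 (unadjusted p of 0.165 in edgeR) and -0.32 without sample 2 of dog 1 (unadjusted p of 0.0709). Against sample 0, SLC2A4 had a log2 difference of 0.16 ± 0.18 in sample 1 and -0.22 ± 0.18 in sample 2, neither past the threshold, and the value for sample 2 was -0.19 without sample 2 of dog 1.

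**Figure D3:**
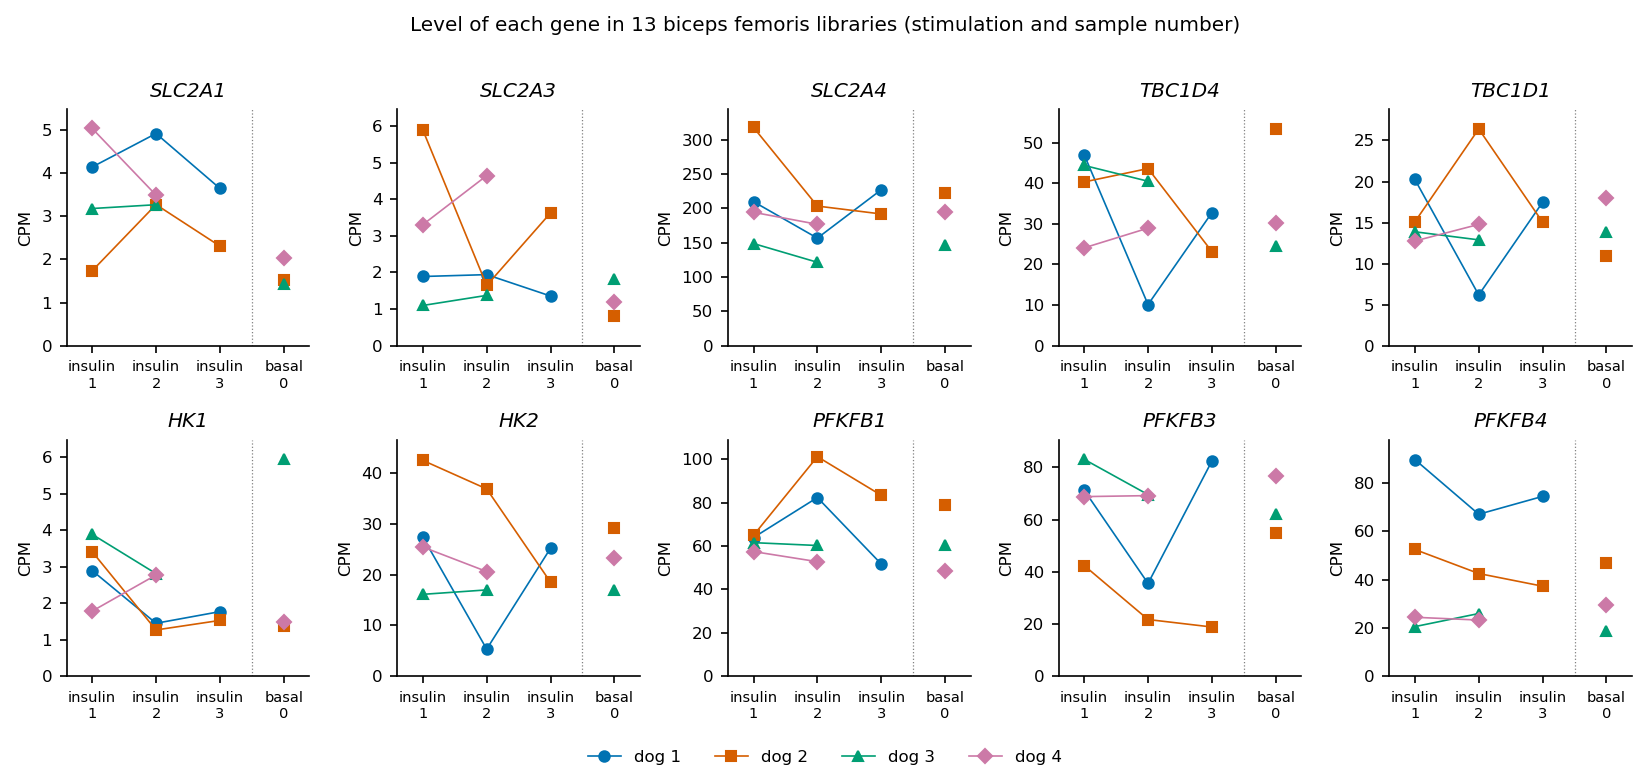
Level of each of the 10 genes in the 13 libraries (CPM, linear axes from 0), by stimulation and sample number, marked by dog, with lines joining insulin libraries of 1 dog. Sample 2 of dog 1 holds the lowest TBC1D4, TBC1D1 and HK2 values of the 13 libraries, and dogs 1 and 2 lie above dogs 3 and 4 for PFKFB4.

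TBC1D4 (AS160, ENSCAFG00000005044), the main AKT target on the vesicles of SLC2A4, had no common direction. Dog 3 had 44.4 and 40.5 CPM in insulin samples 1 and 2, against 24.6 CPM in basal sample 0. Dog 2 had 40.3, 43.6 and 23.2 CPM in insulin samples 1, 2 and 3, against 53.3 CPM, and dog 4 had 24.1 and 28.9 CPM in insulin samples 1 and 2, against 30.3 CPM. The insulin libraries were thus above basal in dog 3 and below it in dogs 2 and 4. The log2 difference in insulin against basal was -0.06 ± 0.37, and it was 0.27 without the basal library of dog 2. Dog 1 had 47.0, 10.1 and 32.8 CPM in insulin samples 1, 2 and 3.

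TBC1D1 (ENSCAFG00000016208), the related protein that is prominent in glycolytic fibres and is also an AMPK target, was higher under insulin in dog 2 and lower in dog 4. Dog 2 had 15.1, 26.4 and 15.1 CPM in insulin samples 1, 2 and 3, against 10.9 CPM in basal sample 0. Dog 4 had 12.8 and 14.8 CPM in insulin samples 1 and 2, against 17.9 CPM, and dog 3 had 13.9 and 12.9 CPM against 13.8 CPM. The average over dogs was close to 0, with a log2 difference of 0.11 ± 0.33 and an interval from -0.60 to 0.82, and it was -0.22 without the basal library of dog 2. Dog 1 had 20.3, 6.19 and 17.5 CPM in insulin samples 1, 2 and 3.

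HK2 (ENSCAFG00000008265), the hexokinase most typical of insulin-sensitive muscle, lay from 5.31 CPM through a median of 22.9 CPM to 42.6 CPM in the 10 insulin libraries. The basal libraries of dogs 2, 3 and 4 had 29.2, 17.0 and 23.3 CPM, all within the insulin range. Relative to the same dog's basal library, the 7 insulin libraries ran from 0.634 to 1.46 times, with dog 2 at both ends. The log2 difference in insulin against basal was 0.04 ± 0.38, and its interval ran from 0.579-fold to 1.82-fold. HK2 in sample 2 against sample 1 had a log2 difference of -0.55 ± 0.41, with an adjusted p of 0.902, and -0.075 without sample 2 of dog 1.

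HK1 (ENSCAFG00000013917), the hexokinase best known from brain and red cells, had its highest level in a basal library. That library, sample 0 of dog 3, had 5.93 CPM, while those of dogs 2 and 4 had 1.38 and 1.48 CPM. The 10 insulin libraries ran from 1.26 CPM through a median of 2.27 CPM to 3.88 CPM. Sample 0 of dog 3 also had the highest sums of the endothelium, macrophage, neutrophil, adipocyte and nerve lists, at 452, 73.7, 73.4, 86.2 and 71.4 CPM. Its sums of the red cell and the smooth muscle and pericyte lists, 38.8 and 220 CPM, were not the highest. The highest of these were 51.5 and 253 CPM, in other libraries. The part of any of these cell types in its HK1 level was not tested. Insulin against basal gave a log2 difference of 0.08 ± 0.39, which was 0.61 without sample 0 of dog 3 and -0.18 without the basal library of dog 2. The counts behind HK1 were 64 to 402 per library.

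The low TBC1D4, TBC1D1 and HK2 values belonged to 1 library. In sample 2 of dog 1 these genes had 10.1, 6.19 and 5.31 CPM, each the lowest of 13, or 0.254, 0.328 and 0.202 of the mean of samples 1 and 3 of the same dog. PFKFB3 stood there at 35.5 CPM, 0.462 of that mean. In that library 21.1% of all genes tested were under 0.5 of that mean. Since dog 1 has no basal library, the library enters insulin against basal only through the spread. Without it the SE was 0.20, against 0.38, for HK2, 0.24, against 0.37, for TBC1D4, and 0.23, against 0.33, for TBC1D1, and none of these genes passed the threshold.

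PFKFB1 (ENSCAFG00000016476), the isoform first described in liver and muscle, differed little between insulin and basal. It ran from 51.7 CPM through a median of 62.7 CPM to 101 CPM in the 10 insulin libraries, and was 79.0, 60.3 and 48.5 CPM in the basal libraries of dogs 2, 3 and 4. The basal library of dog 4 lay below all insulin libraries and the other 2 within their range. The log2 difference was 0.09 ± 0.17, with an interval from 0.826-fold to 1.37-fold.

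PFKFB3 (ENSCAFG00000005194), the isoform of highest kinase activity, which stress signals and hypoxia induce in many cells, had its lowest levels in dog 2. The insulin samples 1, 2 and 3 of dog 2 had 42.4, 21.7 and 18.8 CPM, against 54.9 CPM in its basal sample 0. Dog 4 had 68.8 and 69.2 CPM in insulin samples 1 and 2, against 76.6 CPM, and dog 3 had 83.1 and 69.6 CPM against 62.3 CPM. Insulin libraries were thus lower than basal in dogs 2 and 4 and higher in dog 3. Dog 1 had 71.3, 35.5 and 82.4 CPM in insulin samples 1, 2 and 3.

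The log2 difference of PFKFB3 in insulin against basal was -0.35 ± 0.30, with an unadjusted p of 0.26 and an adjusted p of 1 in edgeR. Leaving out dog 2 turned it to 0.06. In sample 2 against sample 0 it was -0.62 ± 0.33 with an adjusted p of 0.955, and -0.47 without sample 2 of dog 1. Its value in sample 2 against sample 1 was -0.52 ± 0.31, with 3 of 4 dogs lower in sample 2, and -0.28 without sample 2 of dog 1.

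PFKFB4 (ENSCAFG00000012493), an isoform best known from testis and from hypoxic or tumour cells, had levels that set the dogs apart. Dog 1 had 89.9, 67.2 and 74.6 CPM in insulin samples 1, 2 and 3. Dog 2 had 52.5, 42.6 and 37.3 CPM in insulin samples 1, 2 and 3, against 47.1 CPM in basal sample 0. Dog 3 had 20.5 and 25.9 CPM in insulin samples 1 and 2, against 18.7 CPM, and dog 4 had 24.4 and 23.2 CPM against 29.4 CPM. Every library of dog 1 lay above every library of dog 2, and every library of dog 2 above all those of dogs 3 and 4, which overlapped each other. Insulin against basal gave a log2 difference of -0.04 ± 0.17, the interval of which ran from 0.761-fold to 1.25-fold.

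**Figure D4:**
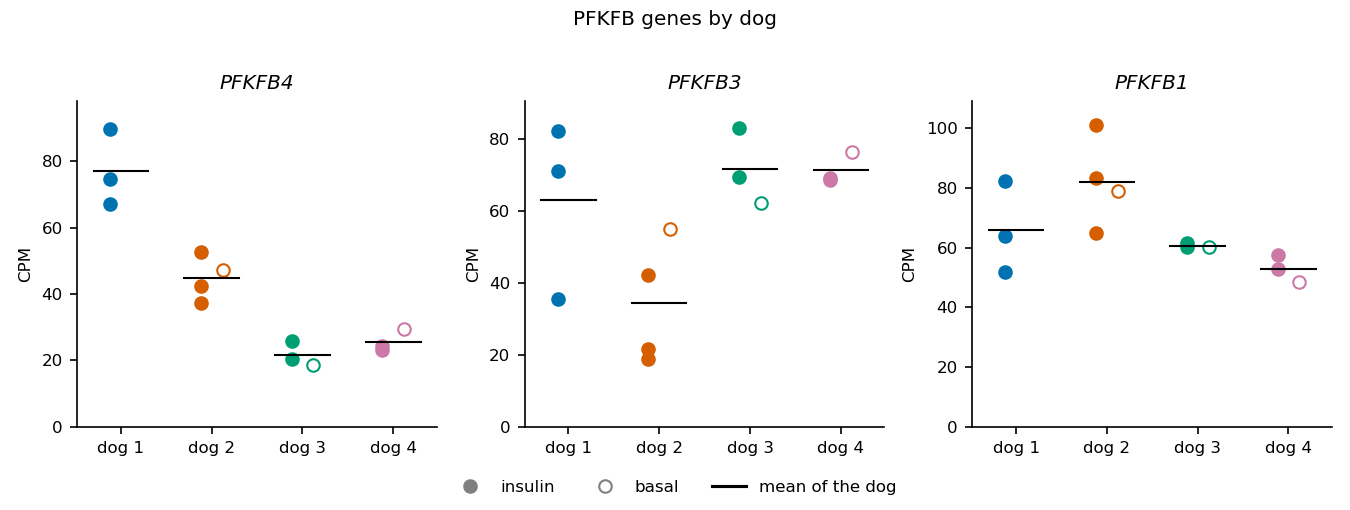
Levels of PFKFB4, PFKFB3 and PFKFB1 in each library (CPM, linear axes from 0), by dog, with filled points for insulin libraries, open points for basal libraries and a bar at the mean of the dog. For PFKFB4 the 3 libraries of dog 1 (67.2 to 89.9 CPM) lie above the 4 of dog 2 (37.3 to 52.5 CPM), and these above the 6 of dogs 3 and 4 (18.7 to 29.4 CPM).

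The difference between dogs was tested after the values had been seen, as the dog term of the insulin against basal model. PFKFB4 passed, with an adjusted p of 0.000364 (edgeR), and it was the only one of the 10 genes to do so, beside 4.20% of all genes tested. Relative to dog 1, its log2 differences were -0.79 in dog 2, -1.84 in dog 3 and -1.60 in dog 4. It passed without each library in turn, in 13 of 13 fits, with an adjusted p of at most 0.00329. The dogs accounted for 93.9% of the sum of squares of its log2 CPM, while the median gene stood at 33.6%.

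Among the other genes the share of the sum of squares between dogs was 62.8% for SLC2A4, 60.4% for PFKFB1 and 57.3% for PFKFB3, and 6.68% for TBC1D1, the lowest of the 10. Their adjusted p for the dog term ran from 0.186 to 0.927. Without the filter on low counts HK2 and PFKFB3 passed as well, with adjusted p of 0.00599 and 2.16e-05 in edgeR. In that setting 1831 of 25207 genes passed, against 614 of 14629 with the filter. The PFKFB4 mean was 77.2 ± 11.6 CPM in dog 1 (SD, n = 3 libraries), 44.9 ± 6.49 CPM in dog 2 (n = 4), 21.7 ± 3.77 CPM in dog 3 (n = 3) and 25.7 ± 3.25 CPM in dog 4 (n = 3). PFKFB3 ran otherwise, at 63.1, 34.4, 71.7 and 71.5 CPM in dogs 1 to 4.

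Libraries of 1 dog share the animal, so these spreads are within dogs and each dog is a single animal. Fibre type markers also differed between dogs. The summed level of the slow fibre list was 21197 to 35627 CPM in libraries of dogs 1 and 2 and 36717 to 53106 CPM in those of dogs 3 and 4, with 0 of its 8 genes past the threshold of the dog term. In the fast fibre list 3 of 7 genes passed, the myosin heavy chains MYH1, MYH2 and MYH4, with adjusted p of 0.000364, 0.0214 and 0.00551 in edgeR. Its summed level was 53185 to 76577 CPM in dog 1, 67217 to 94870 CPM in dog 2 and 51282 to 61862 CPM in dogs 3 and 4. The range of dog 1, which had the highest PFKFB4, thus overlapped that of dogs 3 and 4. The part of fibre type in the PFKFB4 difference was not tested. Dogs 1 and 2 were also the only ones with a sample 3.

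By sample number the 10 genes gave no call. In sample 1 against sample 0, 0 of 10 passed, as 0 of all genes did (0%), with 438 genes at an unadjusted p below 0.05 in edgeR and 77 past the threshold in DESeq2. Of the 10, 9 were higher in sample 1, with a median log2 difference of 0.16 beside -0.011 over all genes. In sample 2 against sample 0, 0 of 10 passed beside 0.0479% of all genes (724 at an unadjusted p below 0.05, and 142 past the threshold in DESeq2), with 4 higher, 6 lower and a median of -0.13 beside -0.020. In sample 2 against sample 1, 0 of 10 and 0% of all genes passed, with 495 at an unadjusted p below 0.05 and 96 in DESeq2. Of the 10, 8 were lower there and the median was -0.33 beside -0.021. These counts rested partly on sample 2 of dog 1. Without it, 6 of the 10 were higher in sample 1 against sample 0, with a median of 0.088. Sample 2 against sample 0 then had 6 higher and 4 lower, with a median of 0.059. Sample 2 against sample 1 had 4 higher and 6 lower, with a median of -0.042, and TBC1D4 and TBC1D1 turned to 0.094 and 0.31.

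HK1 in sample 2 against sample 1 had a log2 difference of -0.57 ± 0.39. When 1 library or dog was left out it ran from -1.02, without sample 2 of dog 4, to -0.22, without dog 2, and it was -0.44 without sample 2 of dog 1. Over the same fits HK2 ran from -0.87, without sample 2 of dog 2, to -0.075, without sample 2 of dog 1. PFKFB3 ran from -0.72, without sample 2 of dog 4, to -0.28, without sample 2 of dog 1.

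Some of the genes moved together between libraries once each dog's mean had been taken away. TBC1D4 and HK2 had Pearson's r of 0.85 over the 13 libraries and 0.49 without sample 2 of dog 1. TBC1D1 and HK2 had 0.78, and 0.26 without that library. SLC2A4 and HK2 kept more of theirs, 0.71 and 0.63. PFKFB1 ran opposite to SLC2A4, at -0.78 with the library and -0.69 without it, and to PFKFB3, at -0.72 and -0.58. Libraries here share dogs, depth and composition, and these values are descriptions.

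The genes most like SLC2A1 by the same measure, among those with a symbol and a mean log2 CPM of at least 1, were SLC25A30, a mitochondrial carrier, with r of 0.945, RRAD, a small GTPase of muscle, with 0.940, and ARRDC4, an alpha-arrestin, with 0.931. Without sample 2 of dog 1 they were 0.955, 0.942 and 0.940. Their own log2 differences in insulin against basal were 0.88, 0.95 and 0.79, none past the threshold, with adjusted p of 0.204, 0.0993 and 0.198 in edgeR. These genes were picked from 8270 for likeness to SLC2A1 over libraries that include the basal ones. Differences of the same sign are therefore no separate result.

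**Figure D5:**
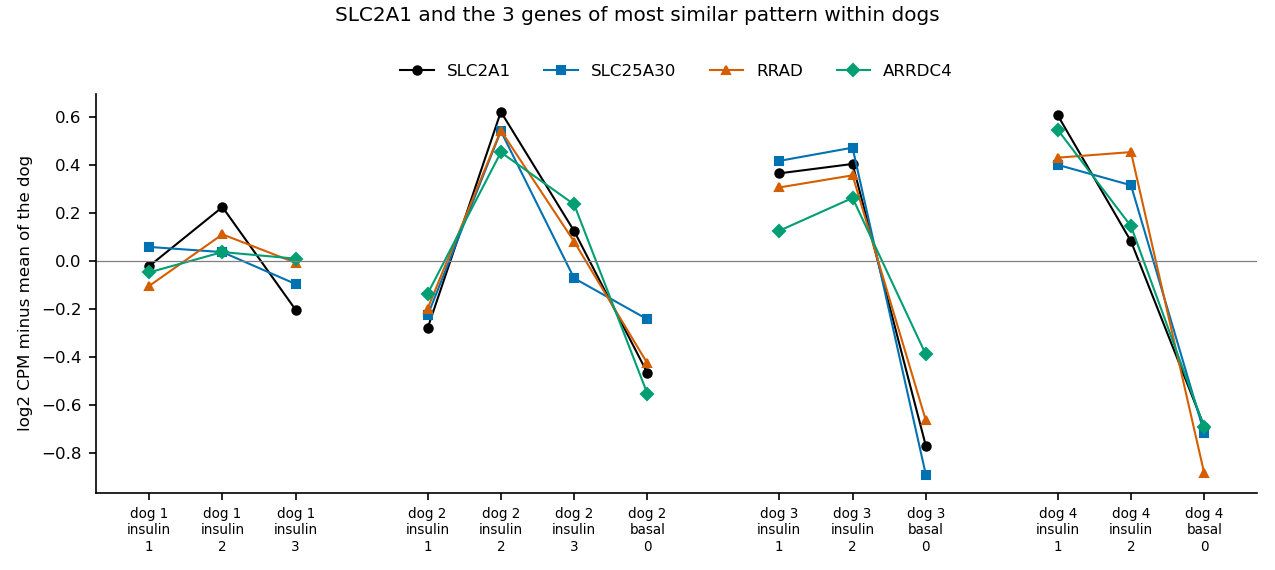
Log2 CPM of SLC2A1, SLC25A30, RRAD and ARRDC4 in each library after subtraction of the dog's own mean, by dog and sample number. The basal libraries of dogs 2, 3 and 4 hold the lowest SLC2A1 value of their dog.

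HK2 was most like RXRA, a nuclear receptor, INPP4A, an inositol lipid phosphatase, and GPAT4, an acyltransferase of triglyceride synthesis, with r of 0.978, 0.976 and 0.975. Those values were 0.899, 0.916 and 0.877 without sample 2 of dog 1. SLC2A4 was most like COG7, a subunit of a Golgi tethering complex, RPS6KA5, a stress-activated kinase, and FAM160A2, with 0.942, 0.908 and 0.900 (0.936, 0.869 and 0.860 without that library). PFKFB3 was most like RXRB, a nuclear receptor, RASGRP3, an exchange factor of Ras proteins, and FAM219A, with 0.943, 0.930 and 0.911 (0.923, 0.900 and 0.880 without it).

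The rest of the glucose entry pathway gave no call in any of the 4 comparisons in edgeR. Of 12 other glucose transporter genes 9 were tested, with 2 higher and 7 lower under insulin and a median log2 difference of -0.16. SLC2A5, a fructose carrier, had -0.35 ± 0.20 and SLC5A2, a sodium-coupled carrier known from kidney, -0.42 ± 0.30. For SLC2A5 the dogs differed in direction, which was not tested. Dog 2 had 29.28, 29.84 and 28.65 CPM in insulin samples 1, 2 and 3, against 23.34 CPM at basal. Dog 3 had 2.78 and 2.86 CPM in insulin samples 1 and 2, against 5.11 CPM, and dog 4 had 2.86 and 2.65 CPM against 4.00 CPM. SLC2A5 passed the dog term, with an adjusted p of 9.77e-06 in edgeR. Of the other genes of glucose phosphorylation, 4 were tested, 3 higher and 1 lower, with HK3, a hexokinase of white blood cells, at 0.79 ± 0.66 and ADPGK, an ADP-dependent glucokinase, at 0.24 ± 0.24.

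The fructose phosphate step, which holds phosphofructokinase, fructose bisphosphatase and related enzymes, had 4 of 7 genes higher and 3 lower, with a median of 0.02. TIGAR, a fructose bisphosphatase that p53 induces, stood at 0.22 ± 0.20 and FBP1, the gluconeogenic bisphosphatase, at 0.65 ± 0.66. In the list of vesicle traffic of SLC2A4, 9 of 30 genes were higher and 21 lower, with a median of -0.02. RAB8B, a Rab GTPase, had 0.76 ± 0.24 with an adjusted p of 0.604 in edgeR, and MYO5A, a myosin motor, -0.38 ± 0.18. Of 10 genes that regulate transcription of SLC2A4, 6 were higher and 4 lower. PPARGC1A, a coactivator of mitochondrial genes, had 0.67 ± 0.21 with an adjusted p of 0.650, and MEF2D, a muscle transcription factor, -0.47 ± 0.40.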

How the data were processed

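Raw read counts per gene were deposited by the authors as whole numbers for 13 libraries, beside a normalized signal that, as the deposited values show, is each count divided by 1 factor per library. The signal served only as a check. The submitters' processing notes name Bowtie 0.12.2 and CanFam3.1 without their roles. The counting program, annotation release and strand setting are not given in the sources used here. Per the labels' protocols, SMARTseq cDNA synthesis was followed by Nextera XT adaptors, which mark no strand, so reads of overlapping or antisense genes cannot be told apart.

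The tests used edgeR 4.0.16 under R 4.3.3 (filterByExpr, TMM factors, robust quasi-likelihood F tests) on 14629 genes, with DESeq2 1.42.0 as an alternative. The edgeR test of insulin against basal was also run on counts simulated without differences between dogs, and DESeq2 was not. That run does not show how the test behaves where dogs differ. Models held the dog and either stimulation or sample number. The labels give the dog of each library. Deviations from group means correlated with a median r of 0.171 within dogs (15 pairs) and -0.0658 across dogs (47 pairs). Libraries of 1 dog were treated as independent given the dog, so p-values rest partly on spread within dogs. Dog 1 has no basal library and enters insulin against basal only through the spread. SE is the log2 difference over the square root of F, and 95% intervals use the moderated degrees of freedom. Log2 CPM used a prior count of 2.

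All 10 genes are named. From each other pathway list, genes past the threshold are named, otherwise those with the 2 lowest p in insulin against basal, and for SLC2A1, SLC2A4, HK2 and PFKFB3 the 3 genes of highest dog-centred r. Genes of the cell type marker lists are named outside this rule. The genes and lists were chosen with earlier results of these data known, and the dog term was added after values were seen. Alternatives were other scaling (RLE), no low count filter, DESeq2, no dog block, counts summed per dog, no sample 3, and leaving out each library or dog. No reference of the files' build was used, so positions and sequences are not given.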

Additional observations from a re-analysis of the deposited data

Results flagged for a closer look

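SLC2A1 in sample 2 of dog 1, at 4.92 CPM, stood far above the other 3 libraries of sample 2, the nearest of which had 3.49 CPM. The gap was 0.865 of the whole range of the 4, above Dixon's 95% critical value for 4 values. This was 1 of 30 groups of values searched, and chance gives such a gap in about 5% of groups.

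In 9 cases, each a gene in a pair of dogs, all insulin libraries of one dog lay above its basal library and all those of the other below. How often such cases arise over all genes tested was not computed. The difference between the dogs was not tested in any of them. For SLC2A3 the mean insulin minus basal difference in log2 CPM was 2.55 higher in dog 2 than in dog 3, and 2.24 higher in dog 4 than in dog 3. For TBC1D4 it was 1.41 higher in dog 3 than in dog 2 and 0.98 higher in dog 3 than in dog 4. For TBC1D1 it was 1.12 higher in dog 2 than in dog 4, and for HK1 it was 1.41 higher in dog 4 than in dog 3. For PFKFB3 it was 1.37 higher in dog 3 than in dog 2 and 0.44 higher in dog 3 than in dog 4. For PFKFB4 it was 0.60 higher in dog 3 than in dog 4. Dog 3 is a member of the pair in 8 of the 9 cases. These share its 1 basal library and are not separate results. Dogs 2 and 4 also have 1 basal library each.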

How the results depend on the processing

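Each insulin dog has at most 1 basal library, which limits what could be resolved. SLC2A1, SLC2A3 and HK1 had the lowest mean levels of the 10 genes. Their SE in insulin against basal were 0.26, 0.52 and 0.39, beside 0.38 for HK2. The part of low counts in their spread was not tested. In insulin against basal the sign of SLC2A1, SLC2A3 and PFKFB1 held in all 23 alternatives. The other 7 genes turned sign in at least 1, and no gene of the 10 passed the threshold except SLC2A1 in DESeq2. Genes past the threshold in insulin against basal numbered 20, and 140 without the low count filter, 103 in DESeq2, 6 without the replicate block of dogs and 1 with counts summed per dog. In sample 1 against sample 0 there were 0, and 4 with RLE factors, 16 without the filter and 77 in DESeq2. In sample 2 against sample 0 there were 7, and 28 without the filter, 142 in DESeq2 and 0 without the replicate block. In sample 2 against sample 1 there were 0, and 96 in DESeq2. The dog term had 614, and 1831 without the filter. Leaving out 1 library or dog gave 4 to 28, 0 to 8, 0 to 13 and 360 to 814 genes in insulin against basal, sample 1 against 0, sample 2 against 0 and the dog term. Without the paired block, log2 differences turned to 0.054 for SLC2A4, -0.32 for HK1 and 0.53 for PFKFB4 in insulin against basal, to -0.014 for PFKFB1 and 0.039 for PFKFB3 in sample 1 against sample 0, and to 0.32 for PFKFB4 in sample 2 against sample 0. Without sample 3 they turned to 0.013 for SLC2A4, 0.053 for TBC1D4 and 0.00045 for PFKFB4, and with counts summed per dog to 0.019 for TBC1D4. When 1 library or dog was left out, insulin against basal ran from -0.18 to 0.61 for HK1, -0.044 to 0.12 for HK2, -0.62 to 0.066 for PFKFB3, -0.19 to 0.094 for PFKFB4, -0.12 to 0.025 for SLC2A4, -0.22 to 0.37 for TBC1D1 and -0.40 to 0.27 for TBC1D4. Sample 1 against sample 0 ran from -0.064 to 0.95 for HK1, -0.10 to 0.15 for PFKFB1, -0.37 to 0.36 for PFKFB3, -0.10 to 0.19 for PFKFB4, -0.16 to 0.48 for TBC1D1 and -0.16 to 0.66 for TBC1D4. Sample 2 against sample 0 ran from -0.72 to 0.37 for HK1, -0.52 to 0.051 for HK2, -0.29 to 0.077 for PFKFB4, -0.45 to 0.32 for TBC1D1 and -0.56 to 0.098 for TBC1D4. Sample 2 against sample 1 ran from -0.077 to 0.38 for SLC2A1, -0.69 to 0.30 for SLC2A3, -0.46 to -0.23 for SLC2A4, -0.58 to 0.34 for TBC1D1 and -0.68 to 0.094 for TBC1D4. The cause of these moves was not tested.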
